A study of Rattus norvegicus with 53 samples.

Results

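Among 51 whole eyes of outbred rats, the 17 eyes with the most RNA of tyrosinase (Tyr) were compared with the 17 eyes with the least, so that 34 of the 51 eyes enter the comparison. The members were chosen by ranking all 51 eyes on their own Tyr value, and the high and low groups are therefore defined from the data and are not groups of the study. The 17 eyes between them were left out of the comparison and used as a separate set.

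Each eye came from a different NIH heterogeneous stock (HS) rat, a population bred from inbred founder strains that carries both pigmented and albino animals. The eyes were frozen at death, freed of extraocular muscle and sequenced as bulk polyA RNA, and the study related their expression to the loci for intraocular pressure. Part of the rats had taken nicotine by self-administration in another study, and neither nicotine, age, sex, coat color nor the Tyr genotype of an eye is given in its labels. Of the 53 eyes sequenced, 2 had been removed by the study because their RNA matched no DNA genotype. All p-values rest on the spread between rats, since no rat gave more than 1 eye. Rats of this population can be related, which the study modeled in its association of genotypes with pressure. The labels give no kinship, and no term for it was used here.

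Tyrosinase is the enzyme that begins melanin synthesis. In the eye it is made by the retinal pigment epithelium and by the melanocytes of the iris, ciliary body and choroid, inside organelles called melanosomes, to which Rab38 helps to carry the enzymes of melanin synthesis. The transcription factor MITF, which drives pigment genes, binds short E-box motifs, of which TCATGTG is the form most often named for pigment genes, while CATGTG is its shorter core and CACGTG a related form. The level of Tyr RNA does not say whether an eye was pigmented, because a nonfunctional tyrosinase can be encoded by a normally expressed RNA.

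The start regions of Tyr and of 3 genes that rose with it are shown because they differ in these motifs. Each is 300 bases from RefSeq on GRCr8, from 250 bases before to 50 after the start, and capitals mark a match on either strand.
Tyr, chr1:150622808-150623107, minus strand: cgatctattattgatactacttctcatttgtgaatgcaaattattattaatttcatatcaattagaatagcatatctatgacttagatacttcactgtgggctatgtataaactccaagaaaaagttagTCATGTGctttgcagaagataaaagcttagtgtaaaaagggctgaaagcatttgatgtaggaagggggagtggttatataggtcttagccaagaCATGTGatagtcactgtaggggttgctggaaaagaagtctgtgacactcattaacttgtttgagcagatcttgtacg
Nnt, chr2:53237261-53237560, minus strand: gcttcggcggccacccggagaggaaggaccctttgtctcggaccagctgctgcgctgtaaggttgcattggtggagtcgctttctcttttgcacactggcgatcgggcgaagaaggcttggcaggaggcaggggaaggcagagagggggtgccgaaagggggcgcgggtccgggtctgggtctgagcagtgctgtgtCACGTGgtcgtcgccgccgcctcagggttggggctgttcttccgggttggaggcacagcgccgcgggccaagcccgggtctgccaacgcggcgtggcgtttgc
Ctsc, chr1:151440799-151441098, plus strand: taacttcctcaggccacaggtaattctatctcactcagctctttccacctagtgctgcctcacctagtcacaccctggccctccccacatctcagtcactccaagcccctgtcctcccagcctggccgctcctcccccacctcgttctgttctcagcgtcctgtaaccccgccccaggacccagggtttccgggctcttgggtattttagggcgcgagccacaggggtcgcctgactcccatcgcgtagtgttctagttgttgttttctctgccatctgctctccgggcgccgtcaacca
Lum, chr7:34245456-34245755, plus strand: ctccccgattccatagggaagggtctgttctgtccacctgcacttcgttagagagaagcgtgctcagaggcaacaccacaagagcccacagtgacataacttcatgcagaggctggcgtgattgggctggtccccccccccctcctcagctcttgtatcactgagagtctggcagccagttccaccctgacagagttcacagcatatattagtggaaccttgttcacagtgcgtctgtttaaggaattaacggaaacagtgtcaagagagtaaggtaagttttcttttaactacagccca

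The Tyr region holds TCATGTG 121 bases before the start, which contains a CATGTG, and another CATGTG 27 bases before it. The Nnt region holds CACGTG 53 bases before the start. Ctsc, Lum and the other 7 of the 10 changed genes with an entry held none of the 3 motifs. Slc6a20, Slc26a7 and Scpep1 had no entry. Of 33469 RefSeq regions of this length, 3.56% hold TCATGTG and 13.97% hold CATGTG, a count that includes those with the longer motif. For CACGTG the share was 6.42%. These matches describe the letters of the windows and are not measured binding sites.

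Tyr starts at 151106802 on chromosome 1 of Rnor_6.0 (ENSRNOG00000016421). Values are given as CPM, the expected count of a gene scaled to a total of 1000000 per eye, and all differences are on the scale of log2(CPM + 1), which understates the change of genes with few counts. In the high eyes Tyr was at 18.9 CPM in the lowest, 24.2 CPM in the median and 47.7 CPM in the highest eye. In the low eyes it was at 2.04 CPM, 5.90 CPM and 8.38 CPM. The medians differed 4.10-fold, and the groups cannot overlap because Tyr chose them. The ranking has no gap at either boundary, with 18.92 CPM in the last high and 18.83 CPM in the first middle eye, and 9.002 CPM in the last middle and 8.38 CPM in the first low eye. Behind these values lie 272 to 1165 counts of Tyr per high eye and 33 to 217 per low eye. The spread was wider at the bottom, 4.11-fold within the low eyes against 2.52-fold within the high eyes.

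**Figure D1:**
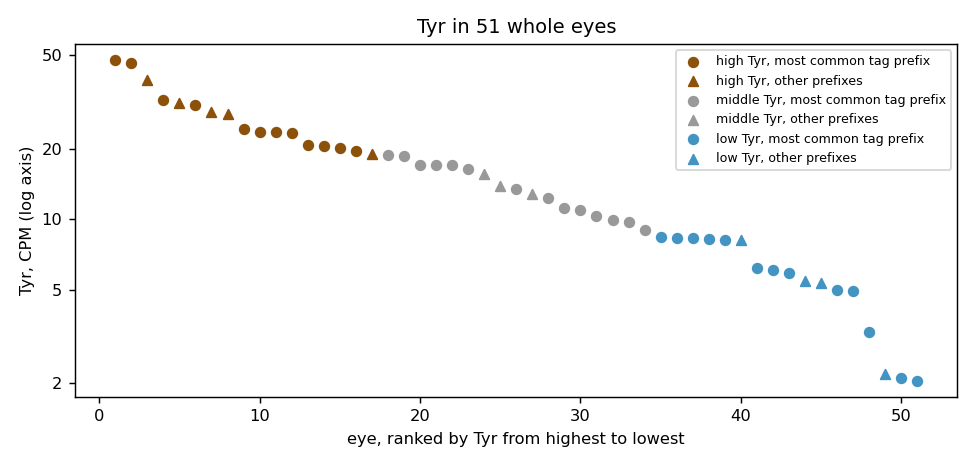
Tyr in 51 whole eyes. The y-axis is CPM on a log scale, the x-axis is the rank of the eye, color marks the high, middle and low 17 eyes, and triangles mark eyes whose animal tag does not carry the most common prefix. The values fall from 47.7 to 2.04 CPM without a gap at either boundary.

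The high and low eyes overlapped in each recorded property. The total count ran from 11938560 to 37869058 in the high and from 11815094 to 34999539 in the low eyes, with 1 eye of each group above 1.5 times the median of all eyes. Counts of 0 would allow up to 0.329 CPM in the shallowest and 0.0712 CPM in the deepest of the 51 eyes, for counting error only. The most common tag prefix was carried by 12 high and 13 low eyes, and 3 high and 4 low eyes had their label corrected by the study. The mitochondrial share had a median of 2.79% in the high (0.418% to 8.91%) and 3.32% in the low eyes (0.440% to 6.85%). Summed RNA of chromosome Y was above 10 CPM in 9 high and 6 low eyes.

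Most of the genes that changed were higher in the high Tyr eyes. Of 13843 genes whose median over the 51 eyes was 1 CPM or more, Tyr excluded, 249 were higher and 10 lower at an adjusted p under 0.05 (limma, Benjamini-Hochberg), which is 1.8% and 0.0722% of the genes tested, and 1174 had an unadjusted p under 0.05. The log2 difference of the genes that rose had a median of 0.82 and ran from 0.29 to 1.94, and 80 of them differed more than 2-fold. The genes that fell did so by less, between -0.23 and -0.54. The median over all genes tested was -0.01. A gene could be named only where its position was listed in the tables of the study, which was so for 706 of the genes tested. Of all 785 named genes, 778 came from the study's list of genes whose expression was linked to nearby genotypes in these same 51 eyes. They are thus not a neutral sample of all genes. Among the 706 tested, 13 rose and 1 fell, or 1.84% and 0.142%, close to the shares among all genes. The 236 other genes that rose and the 9 others that fell carry an identifier alone. In a bulk eye, a lower level of a gene from fewer cells of a type and from less RNA per cell cannot be told apart.

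Ctsc, which encodes the lysosomal protease cathepsin C, was higher in the high Tyr eyes. It starts at 151918571 on chromosome 1 of Rnor_6.0, near Tyr. The study linked its RNA level to a variant that is mostly inherited together with the top variant of its chromosome 1 locus for intraocular pressure. By the study, the albino variant of Tyr is also mostly inherited with that top variant. The study found no significant link between the RNA level of Tyr itself and genotypes in this region. It adds that its small number of eyes may have missed such links. The genotype of each eye is not given, so its part in the difference was not tested. Ctsc was at 14.2 CPM in the lowest, 25.4 CPM in the median and 31.01 CPM in the highest of the high eyes, and at 7.20, 15.9 and 22.7 CPM in the low eyes. The groups overlapped, but 10 high eyes lay above every low eye and 16 of 17 above the low median. The log2 difference was 0.54 (SE 0.11, 95% interval 0.31 to 0.77, adjusted p = 0.00300), or 1.46-fold.

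The other genes near Tyr did not pass the test. Of 38 gene starts within 2 Mb of Tyr, 31 were at 0 in all eyes and 5 reached a median of 1 CPM, and Ctsc was the 1 called. Rab38, at 152072665, had 2.37, 5.14 and 9.85 CPM in the lowest, median and highest high eye and 1.82, 3.64 and 7.59 CPM in the low eyes, so that the groups overlapped over most of their range. Its log2 difference was 0.35 (SE 0.16, unadjusted p = 0.0332, adjusted p = 0.492). Tmem135, a gene of mitochondrial and peroxisomal membranes at 153096269, differed by 0.04 (SE 0.13). The remaining pair, ENSRNOG00000013770 and ENSRNOG00000016429, differed by 0.22 (SE 0.21) and 0.05 (SE 0.13). Chromosome 1 as a whole held 10.04% of the called genes and 12.5% of the genes tested.

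Few genes of melanin synthesis could be named. Of 43 genes of melanin synthesis and the melanosome besides Tyr, 3 were named and tested, and 0 passed. Apart from Rab38, these were Bloc1s2 and Bloc1s6, subunits of a complex that sorts cargo to melanosomes, with log2 differences of -0.04 (SE 0.13) and 0.08 (SE 0.12). Other members such as Tyrp1, Dct and Pmel, where they reached the minimum level, were tested under an identifier that is not paired with a name here, so this count says nothing of them. Whether any of them is among the 236 unnamed genes that rose, which hold the smallest adjusted p, is not known here. Of the markers of the retinal pigment epithelium 0 of 2 tested passed. Retsat, a retinol saturase, differed by 0.30 (SE 0.17) and Serpinf1, which encodes the secreted factor PEDF, by 0.38 (SE 0.17), with adjusted p = 0.715 and 0.468. The eyes thus differed in Tyr by construction, and whether they differed in pigment cells as a whole was not tested.

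Genes of collagen-rich connective tissue were among the named genes that rose most. Of 32 genes listed for corneal stroma and sclera, 11 could be named and 10 were tested, so most of the list was not seen here by name. Lum encodes lumican, a proteoglycan that spaces the collagen fibrils of the cornea. It was at 2.09, 5.04 and 15.9 CPM in the lowest, median and highest high eye and at 0.261, 1.54 and 7.29 CPM in the low eyes. All 17 high eyes lay above the low median, and 10 low eyes lay below every high eye. Its log2 difference was 1.23 (SE 0.24, adjusted p = 0.000926), or 2.35-fold, on as few as 5 counts in an eye. Fmod, the related proteoglycan fibromodulin, had 22.1, 62.8 and 87.6 CPM in the high and 14.6, 32.5 and 68.8 CPM in the low eyes, a log2 difference of 0.87 (SE 0.15, adjusted p = 0.000171). A single high eye, the lowest at 22.1 CPM, lay below the low median.

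Aebp1 and Islr, which encode secreted proteins of fibroblasts in many tissues, rose as well. Islr was at 5.19, 9.10 and 11.8 CPM in the high and 0.990, 3.22 and 7.11 CPM in the low eyes, with 11 high eyes above every low eye. Its log2 difference was 1.18 (SE 0.18, adjusted p = 2.44e-05). Aebp1 was at 11.1, 19.4 and 30.1 CPM in the high and 3.23, 7.44 and 28.5 CPM in the low eyes. Here the low eyes were widely spread, with 10 of them below every high eye and 3 above the high median, and the log2 difference was 0.93 (SE 0.23, adjusted p = 0.0160).

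The 1 named gene that fell was also a matrix gene. Sparcl1, a secreted glycoprotein of the matrix and of glia, was at 217, 249.5 and 327 CPM in the high and 241, 301 and 359.6 CPM in the low eyes. The groups overlapped, though 15 of 17 high eyes lay below the low median. The log2 difference was -0.24 (SE 0.07, adjusted p = 0.0466). In the list of corneal stroma and sclera, 4 of 10 members tested rose (Lum, Fmod, Aebp1 and Islr) and 1 fell (Sparcl1), beside 1.8% and 0.0722% of all genes tested. The list was chosen with earlier results of these data known, as was Lum, so the count is not independent of them. The median log2 difference of the list was 0.47, beside -0.01 over all genes. Col5a3, a fibril collagen chain, differed by 0.82 (SE 0.35, adjusted p = 0.443) and Tnc, which encodes tenascin C, by -0.22 (SE 0.09, adjusted p = 0.331). The summed level of the list overlapped widely, from 648 to 1154 CPM in the high and 673.8 to 1074 CPM in the low eyes. Sparcl1 and Sfrp1 had the highest medians of the list in both groups, so the sum says little of the 4 genes that rose. Sfrp1 differed by 0.07 (SE 0.18), Frzb by 0.02 (SE 0.14) and Clec3b by 0.11 (SE 0.21).

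Slc6a20, Slc26a7 and Lrp2, which encode a pair of transporters and an endocytic receptor, were higher in the high Tyr eyes. Slc6a20, a transporter of proline and related amino acids, had 6.96, 13.98 and 28.9 CPM in the lowest, median and highest high eye and 0.679, 5.35 and 14.98 CPM in the low eyes. All high eyes lay above the low median and 13 low eyes below every high eye. It had the largest difference of the named genes, 1.40 on the log2 scale (SE 0.25, adjusted p = 0.000429), or 2.65-fold. Slc26a7, an anion transporter, was at 6.97, 13.3 and 33.3 CPM in the high and 1.42, 5.82 and 13.2 CPM in the low eyes. Its log2 difference was 1.21 (SE 0.22, adjusted p = 0.000559), with 9 high eyes above every low eye. Lrp2 encodes megalin, a large endocytic receptor of epithelia. It was at 25.03, 36.1 and 60.2 CPM in the high and 11.3, 24.1 and 67.0 CPM in the low eyes, so that 10 low eyes lay below every high eye while 1 low eye lay above them all. The log2 difference was 0.67 (SE 0.17, adjusted p = 0.0165).

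Nnt, Oat and Fads1, which encode metabolic enzymes, were higher in the high Tyr eyes, by 1.62-fold or less. Nnt, the mitochondrial transhydrogenase that makes NADPH, had the smallest adjusted p of the named genes. It was at 49.3, 67.0 and 85.0 CPM in the high and 23.6, 40.6 and 58.9 CPM in the low eyes, with 14 low eyes below every high eye and 12 high eyes above every low eye. Its log2 difference was 0.70 (SE 0.10, 95% interval 0.50 to 0.89, adjusted p = 6.27e-06). Oat encodes ornithine aminotransferase, whose loss causes gyrate atrophy of the choroid and retina. It was at 119.5, 153 and 231 CPM in the high and 93.8, 111 and 159 CPM in the low eyes, a log2 difference of 0.43 (SE 0.08, adjusted p = 0.000525). Fads1, a fatty acid desaturase, had 93.0, 135 and 209 CPM against 79.8, 109.8 and 140.1 CPM, with a log2 difference of 0.33 (SE 0.08, adjusted p = 0.0190). For both genes 16 or more of the 17 high eyes lay above the low median, yet the ranges overlapped.

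Of the lysosomal enzymes, 2 of 11 members tested rose and 0 fell, beside 1.8% and 0.0722% of all genes. The median log2 difference of the list was 0.11, beside -0.01 over all genes. This list and Ctsc were also chosen with earlier results of these data known. Besides Ctsc, the member that rose was Scpep1, a serine carboxypeptidase, at 26.2, 35.96 and 63.8 CPM in the high and 19.1, 32.7 and 40.5 CPM in the low eyes. The medians were close, and the log2 difference of 0.45 (SE 0.12, adjusted p = 0.0390) went with 8 high eyes that lay above every low eye. Ctsd, the protease cathepsin D, differed by 0.30 (SE 0.09, adjusted p = 0.114).

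**Figure D2:**
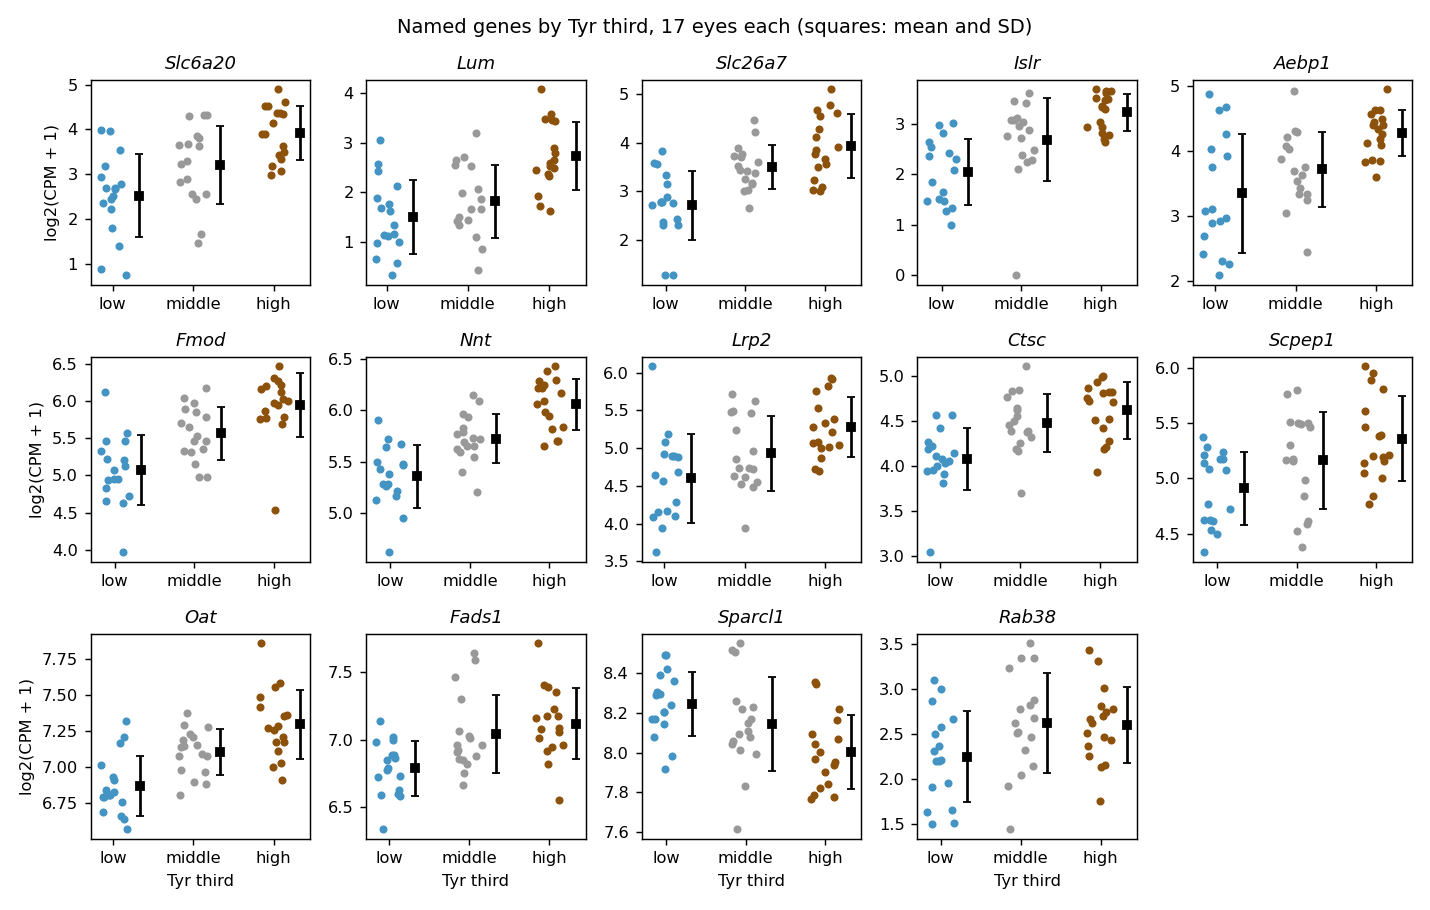
Named genes in low, middle and high Tyr eyes. Each panel is a gene, the y-axis is log2(CPM + 1), each point is an eye (17 per group) and squares with bars are the mean and SD. Nnt and Islr separate the outer groups most, with 12 and 11 high eyes above every low eye, and Rab38, which was not called, overlaps over most of its range.

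The smallest adjusted p of all genes belonged to a gene without a name here. ENSRNOG00000029318, at 98387291 on chromosome 5, was at 191, 245.5 and 475 CPM in the lowest, median and highest high eye and at 27.9, 70.7 and 134 CPM in the low eyes. Every high eye lay above every low eye, as in 3 of the 13843 genes tested (0.0217%), and the log2 difference was 1.92 (SE 0.17, 3.78-fold, adjusted p = 2.10e-09). ENSRNOG00000014465, at 114679537 on chromosome 1, rose by 1.68 (SE 0.18, adjusted p = 1.56e-07), with 15 high eyes above every low eye. Among the genes that fell, ENSRNOG00000006591, at 5693147 on chromosome 3, differed by -0.54 (SE 0.11, adjusted p = 0.00150). ENSRNOG00000025235, at 11814071 on chromosome 12, differed by -0.30 (SE 0.06, adjusted p = 0.00283).

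Named markers of the other tissues of the eye did not pass the test. Of 410 genes in the lists, 77 could be named and 71 were tested, of which 6 rose and 1 fell, beside 1.8% and 0.0722% of all genes. The lists were chosen with earlier results of these data known. In the corneal and conjunctival epithelium 0 of 11 passed, with a median log2 difference of -0.14, and 9 of the 11 were below 0. Their summed level had a median of 1718 CPM in the high (1340 to 2705) and 2121 CPM in the low eyes (1450 to 3184), and its part in the rise of stromal genes was not tested. Dsc3, a desmosomal cadherin, differed by -0.31 (SE 0.13, adjusted p = 0.449), and Sdc4, a cell surface proteoglycan, by 0.27 (SE 0.10, adjusted p = 0.302). In photoreceptors 0 of 4 passed, and the calcium sensor gene Guca1b differed by -0.05 (SE 0.10). In inner retinal neurons 0 of 6 passed, with Cplx3, a complexin of ribbon synapses, at -0.23 (SE 0.08, adjusted p = 0.217). In Müller glia and astrocytes 0 of 6 passed. Clu, which encodes the secreted chaperone clusterin, had 707, 996.7 and 1244 CPM in the high and 596.5, 782 and 1230.0 CPM in the low eyes, a log2 difference of 0.29 (SE 0.09, adjusted p = 0.102). In limma Clu passed as a slope over all 51 eyes, at 0.15 per unit of log2 Tyr (adjusted p = 0.000338). With the top 10 against the bottom 10 eyes it passed as well, at 0.50 (adjusted p = 0.0105). Macrophage and immune genes passed in 0 of 5 and had summed levels of 29.96 to 115.5 CPM in the high and 45.06 to 119.7 CPM in the low eyes. The lists of trabecular meshwork and ciliary body, smooth muscle, skeletal muscle, myelin, endothelium and red blood cells had 1 or 2 members tested each, and 0 passed. No member of the lists of lens, immediate early, mitochondrial and Y-linked genes could be named. The 1 named member of the lacrimal gland list did not reach the minimum level, and its other members had no name here.

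**Figure D3:**
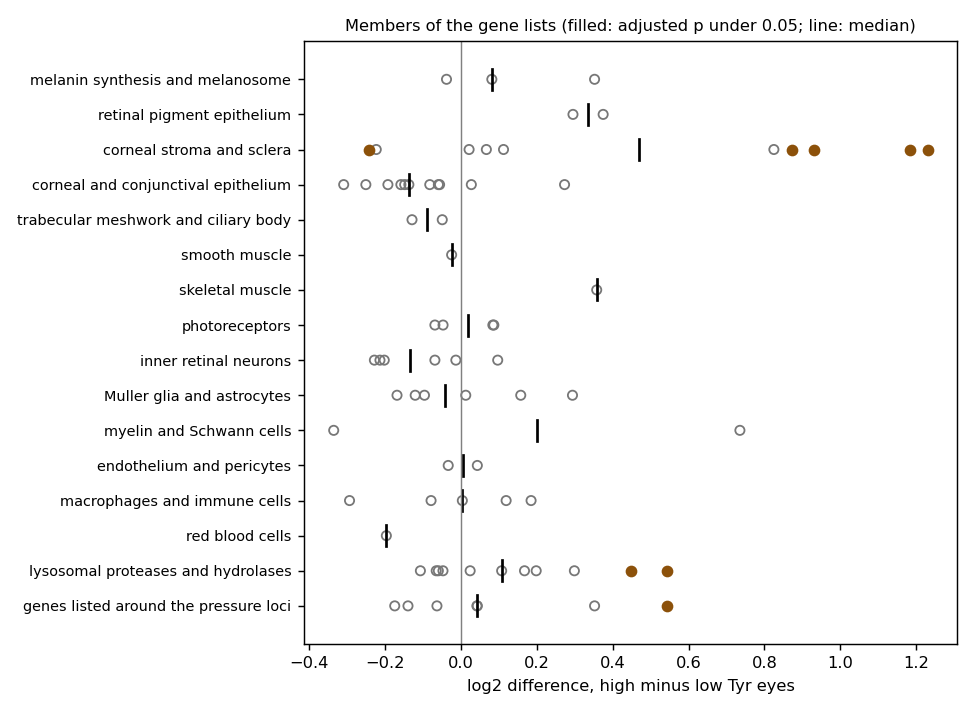
Log2 difference between high and low Tyr eyes for each tested member of the gene lists. The x-axis is the difference, each circle is a gene, filled circles have an adjusted p under 0.05 and black lines are medians. The filled circles lie in the lists of corneal stroma and sclera, lysosomal enzymes and genes listed by the study around its intraocular pressure loci (Ctsc, shown in both of the last).

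Of 7 tested genes that the study lists in or beside its loci for intraocular pressure, Ctsc rose and the other 6 did not pass, beside 1.8% of all genes that rose. Ctsc had been chosen with earlier results of these data known. Angpt2, a ligand of the TEK receptor on chromosome 16, differed by 0.04 (SE 0.14), and its neighbor Mcph1, the microcephalin gene, by -0.17 (SE 0.17). On chromosome 5, Plekhf2, an endosomal protein gene, differed by -0.06 (SE 0.09) and Ndufaf6, an assembly factor of complex I, by -0.14 (SE 0.11).

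The 17 middle eyes, which took no part in the comparison, gave slopes of the same sign for most of these genes. The slope is the change in log2(CPM + 1) of a gene per unit of log2 Tyr, over a range of Tyr of 2.09-fold. In limma 0 genes passed an adjusted p of 0.05 in these eyes, and 1052 had an unadjusted p under 0.05. Of the 249 genes higher in the high Tyr eyes, 217 (87.1%) had a slope above 0, beside 55.7% of all genes tested, and 54 (21.7%) had a slope above 0 with an unadjusted p under 0.05, beside 5.55%. Their median slope was 0.41, beside 0.04 over all genes. The 249 genes were read in the same 17 eyes and can vary together, so these shares do not count independent results. Of the 10 genes that fell, 7 had a slope below 0, beside 44.3% of all genes. Among the named genes, Oat had a slope of 0.34 (SE 0.12, unadjusted p = 0.00828), Lrp2 0.73 (SE 0.31, unadjusted p = 0.0300), Fmod 0.54 (SE 0.24, unadjusted p = 0.0319) and Sparcl1 -0.44 (SE 0.16, unadjusted p = 0.0103). Slc6a20 had 1.10 (SE 0.55) and Ctsc 0.13 (SE 0.25). Islr was the 1 of the 13 that did not share the sign, at -0.13 (SE 0.58), and it was at 0 in 1 middle eye. Rab38 had a slope of 0.92 (SE 0.35, unadjusted p = 0.0170, adjusted p = 0.580), and it was not called in the outer eyes either. The gene with the smallest adjusted p, ENSRNOG00000029318, had a slope of 1.03 (SE 0.22, unadjusted p = 0.000151).

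**Figure D4:**
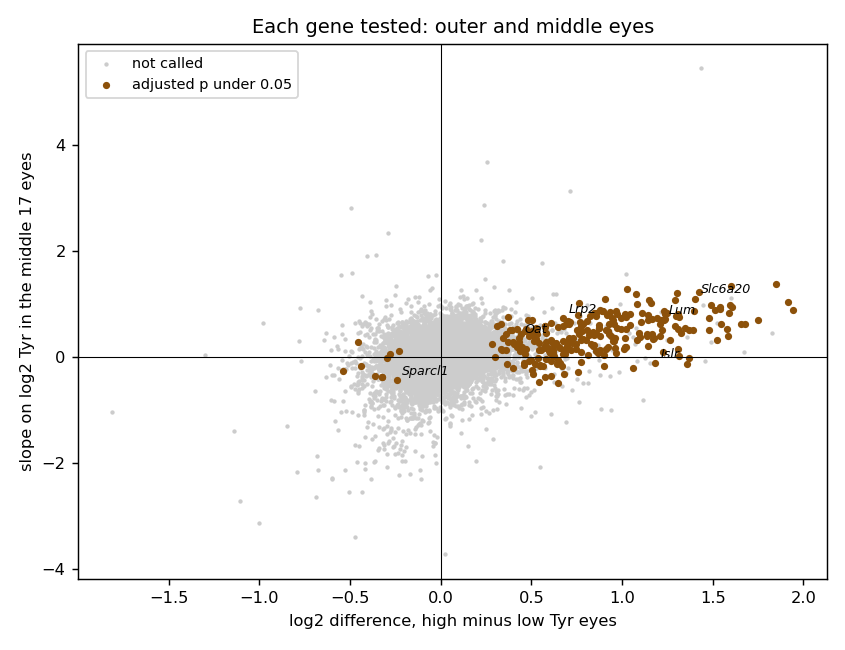
Each point is a gene tested. The x-axis is its log2 difference between high and low Tyr eyes, the y-axis is its slope on log2 Tyr in the middle 17 eyes, and brown points have an adjusted p under 0.05 in the outer eyes. On the right, 217 of 249 brown points lie above 0.

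The comparison was repeated within eyes of the most common tag prefix and within the others, which pool several prefixes. The labels do not give the meaning of a prefix. Within the 25 outer eyes of the most common prefix 137 genes rose (0.99% of those tested) and 11 fell (0.0795%), and within the 9 others 15 rose (0.108%) and 1 fell (0.00722%). The 25 and 9 eyes together are the 34 eyes in which the called genes were found, so a like sign of these genes in both sets is largely fixed by that choice. Among genes that were not called the sign could differ, as for Tmem135 at 0.15 in the common prefix and -0.19 in the others, and for Angpt2 at 0.22 and -0.44. Nnt differed by 0.54 (SE 0.10) in the eyes of the common prefix and by 1.15 (SE 0.20) in the others, and Ctsc by 0.51 (SE 0.11) and 0.70 (SE 0.27). The interaction of Tyr group and prefix was called in 0 of 13843 genes in limma (smallest adjusted p = 0.361), and 1733 had an unadjusted p under 0.05.

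**Figure D5:**
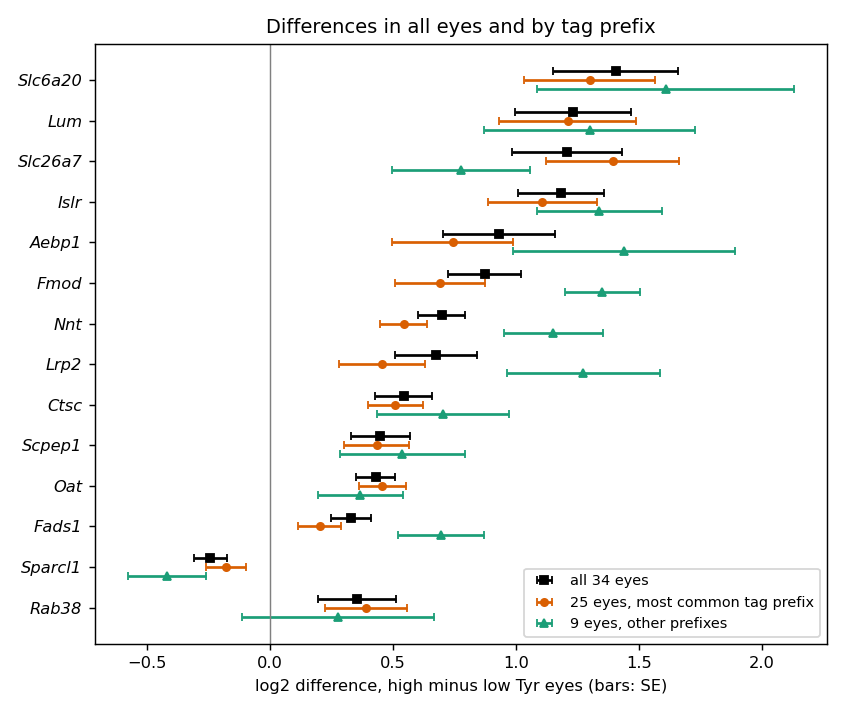
Log2 difference between high and low Tyr eyes with its SE for the 13 called genes described by name and Rab38, in all 34 eyes (squares), the 25 of the most common tag prefix (circles) and the 9 others (triangles). Nnt lies at 0.54 in the common prefix and 1.15 in the others, and the called genes were chosen in the same 34 eyes.

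The number of calls depended on how many components of expression were set as terms. With the first 5 principal components as terms 331 genes rose (2.39%) and 59 fell (0.426%), and with 20, the number the study removed in its eQTL mapping, 0 passed and 1123 had an unadjusted p under 0.05. With 20 components 112 of the 249 genes (44.98%) were above 0, beside 49.2% of all genes, and Nnt differed by -0.00 (SE 0.14) and Ctsc by -0.02 (SE 0.21). Without these terms the SE was 0.10 for Nnt and 0.11 for Ctsc. The 20 terms were fitted here to 34 eyes, while the study used 51 eyes and added components of genotype. Tyr had a Pearson's r of 0.42 with the fifth component and -0.58 with the sixth over the 51 eyes, and these components were computed from expression that includes the called genes. With the level of Lum as a term, 77 genes rose (0.556%), of which 76 were among the 249. These included Nnt at 0.65 (SE 0.13, adjusted p = 0.00646), Islr, Fmod and Slc6a20, while the other called named genes lost the call, among them Ctsc at 0.44 (adjusted p = 0.381) and Aebp1 at 0.50 (adjusted p = 0.9997). With 5 components 9 of the 14 called named genes were still called. Sparcl1 was then at -0.04 (adjusted p = 0.816), so the 1 named gene that fell lost its call, and Lum was at 1.07 (adjusted p = 0.0570). Rab38 passed with 5 components, at 0.68 (adjusted p = 0.0171).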

How the data were processed

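Whole-eye RNA of HS rats was sequenced as paired-end reads and aligned by the authors to Rnor_6.0 with STAR in a pair of passes, and labels were checked against DNA genotypes with GATK ASEReadCounter. The deposited table holds RSEM expected counts per gene plus 1 as log2, a unit read from the values, since 89.8% of those between 0.5 and 50 lie within 0.01 of a whole number once the log2 is undone. The study's methods name another unit, inverse normal TPM, for its eQTL mapping. Neither the tools' versions nor the annotation is given in the sources used here. Total expected counts per eye ran from 9109084 to 42146827 (median 16193478) over 32576 genes, of which 12386 were at 0 in every eye.

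Counts were scaled to 1000000 per eye and taken as log2 of CPM plus 1. Tyr and the other genes share this scaling. Genes were compared between the 17 high and 17 low Tyr eyes with limma 3.58.1 (R 4.3.3, moderated test with a trend in the prior variance, two-sided), with Benjamini-Hochberg adjustment over the 13843 genes whose median over the 51 eyes was 1 CPM or more. Expected counts were available only as log2 values of estimates, so the test was run on the log scale. Names came from start positions in the study's tables, for 785 genes. The ranking, the gene lists and the named genes were chosen with earlier results of these data known. The rule named Rab38, Ctsc and Lum, the named melanin genes, the 10 named genes with the smallest p and the 5 with the largest difference per direction, expressed neighbors of Tyr, and up to 4 called members of each list (otherwise its 2 most abundant). Other genes were named after their values were seen, as was the choice of sequences. A gene that passed is counted but not reported here by name. The steps were tested on simulated data. Other steps used Python 3.11.15, numpy 2.4.6, pandas 2.3.3 and matplotlib 3.10.9.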

Additional observations from a re-analysis of the deposited data

How the results depend on the processing

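The 14 called named genes were chosen in the 34 eyes that most alternatives use again, so a kept direction is largely fixed by that choice. Of 278 values of the 14 called named genes under the alternatives, 188 kept direction and call, 82 kept direction and lost the call, and 8 changed sign. These were Islr in the middle eyes (-0.13) and, with 20 components, Ctsc (-0.0204), Lum (-0.19), Nnt (-0.0031), Slc6a20 (-1.23), Slc26a7 (-0.24), Lrp2 (-0.54) and Scpep1 (-0.0806). The counts of genes higher and lower, 249 and 10, were 0 and 0 in the middle eyes and with 20 components, 15 and 1 in the eyes of other tag prefixes, 77 and 1 with Lum as a term, and 137 higher in the most common prefix. The count lower was 59 with 5 components, 34 for the slope over 51 eyes, 28 and 18 with median-of-ratios scaling with and without a new ranking, 21 and 18 with groups of 25 and 10, 19 with the mitochondrial share as a term and 6 without relabelled eyes. Called list members, 7 in the report, were 0 in the middle eyes and with 20 components, 1 and 3 in the other and the common prefix, 2 with Lum and 4 without the deepest eyes. Leaving out each eye in turn gave 209 to 300 genes higher and 8 to 22 lower. The lower count moved past 1.5 times without high eye 17, with 22 genes, and without high eyes 10 and 12, with 16 each, numbered from the highest Tyr. The terms for Lum, chromosome Y RNA and the mitochondrial share and the set of other prefixes were chosen after seeing the data. Where a call was lost, fewer eyes or more terms entered the fit or the cause was not tested. Calls in a small group say little at 9 eyes, and Lum and Slc6a20 rest on as few as 5 and 11 counts in an eye. No paired analysis was possible because each rat gave a single eye and the labels carry no shared replicate numbers.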

Other observations

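Several named genes had log2 differences below 0 in the high Tyr eyes without passing the test. Syt13, a synaptotagmin gene, was at a median of 105 CPM in the high and 119.5 CPM in the low eyes, a log2 difference of -0.19 (SE 0.06, adjusted p = 0.132 in limma). Crmp1, a collapsin response mediator gene of neurons, differed by -0.18 (SE 0.06, adjusted p = 0.172), and its slope in the middle eyes was 0.03. Cxcl14, a chemokine gene of epithelia, differed by -0.41 (SE 0.14, adjusted p = 0.173), and Spp1, which encodes osteopontin, by -0.45 (SE 0.16, adjusted p = 0.190). Slc13a5, a citrate transporter gene, differed by -0.47 (SE 0.15, adjusted p = 0.101) and passed as a slope over all 51 eyes, at -0.22 per unit of log2 Tyr (adjusted p = 0.0204).

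In the other direction Enpp6, a choline phosphodiesterase gene of myelinating glia, had a median of 7.07 CPM in the high and 2.79 CPM in the low eyes. Its log2 difference of 0.74 (SE 0.28) had an adjusted p of 0.287, and its slope over 51 eyes of 0.39 an adjusted p of 0.0193. Mal, a myelin and epithelial membrane gene, differed by -0.33 (SE 0.16, adjusted p = 0.515), so the members of that list did not share a sign.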
